A study of Oryza sativa with 9 samples.

Results

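A set of 6 nuclear loci of the photosynthetic light reactions was followed here, with 8 transcripts out of the 832 transcripts (727 loci) that the authors' deposited tables list for any pair of genotypes. By the deposited descriptions they encode light-harvesting complex II chlorophyll a/b binding proteins 1 (LOC_Os09g17740) and 2 (LOC_Os03g39610), light-harvesting complex I chlorophyll a/b binding protein 2 (LOC_Os07g38960), photosystem I subunit XI (LOC_Os12g23200), the photosystem II 10 kDa protein (LOC_Os08g10020) and photosystem II oxygen-evolving enhancer protein 3 (LOC_Os07g36080). All rows of these 6 loci were taken from the tables, so the members were chosen by the same genotype means and ratios that are described below, and these get no test. The locus identifiers place them on chromosomes 3, 7, 8, 9 and 12.

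The tissue was the spikelet, the unit of the rice (Oryza sativa) inflorescence that holds a flower and its hull. Plants were BC14F2, which come from selfing after repeated backcrosses. Sequenced polyA RNA came from 9 samples, 3 per genotype at f5, which governs male sterility in hybrids of rice subspecies. Genotypes were f5-i/j (heterozygotes), f5-i/i and f5-j/j (homozygotes for either allele). The sources used here give neither developmental stage nor hour of collection, and do not tell if samples of 1 genotype were taken from different plants. The deposited values are the authors' means over the samples of a genotype, in a unit that is not stated, so no value below has an error and no difference could be set against the spread between replicates.

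Light-harvesting proteins bind chlorophyll in the thylakoid membrane of the chloroplast and pass absorbed energy to the 2 photosystems. Those of complex II mainly serve photosystem II, which splits water, and those of complex I serve photosystem I, which reduces ferredoxin. In a rice spikelet the green lemma and palea are photosynthetic tissue, whereas anthers and pistil hold far less chlorophyll. In such a bulk sample, fewer green cells and less RNA per green cell cannot be told apart.

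In the spikelets of the heterozygote and of f5-j/j, most of these transcripts stood above their level in f5-i/i homozygotes. Of the 8 transcripts, 7 had their lowest mean in f5-i/i homozygotes and 1 had it in heterozygotes. Among the 407 transcripts of the tables with a mean in all 3 genotypes, the single lowest mean was that of f5-i/i in 30.7% and that of f5-i/j in 28.3%. The highest mean was in heterozygotes for 5 of the 8 and in f5-j/j homozygotes for 3. The matching share over all transcripts was not computed. All 8 were listed for heterozygotes against f5-i/i, with 7 higher and 1 lower, where 53.3% of all 480 listed transcripts were higher. For heterozygotes against f5-j/j 3 were listed, 2 higher and 1 lower, where 44.6% of all 350 were higher. For f5-i/i homozygotes against f5-j/j 5 were listed, all lower in f5-i/i homozygotes, where 54.9% of all 421 were lower. These counts follow from how the loci were chosen and nothing is read from them. The comparisons share genotypes in pairs, so they are not independent of each other.

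**Figure D1:**
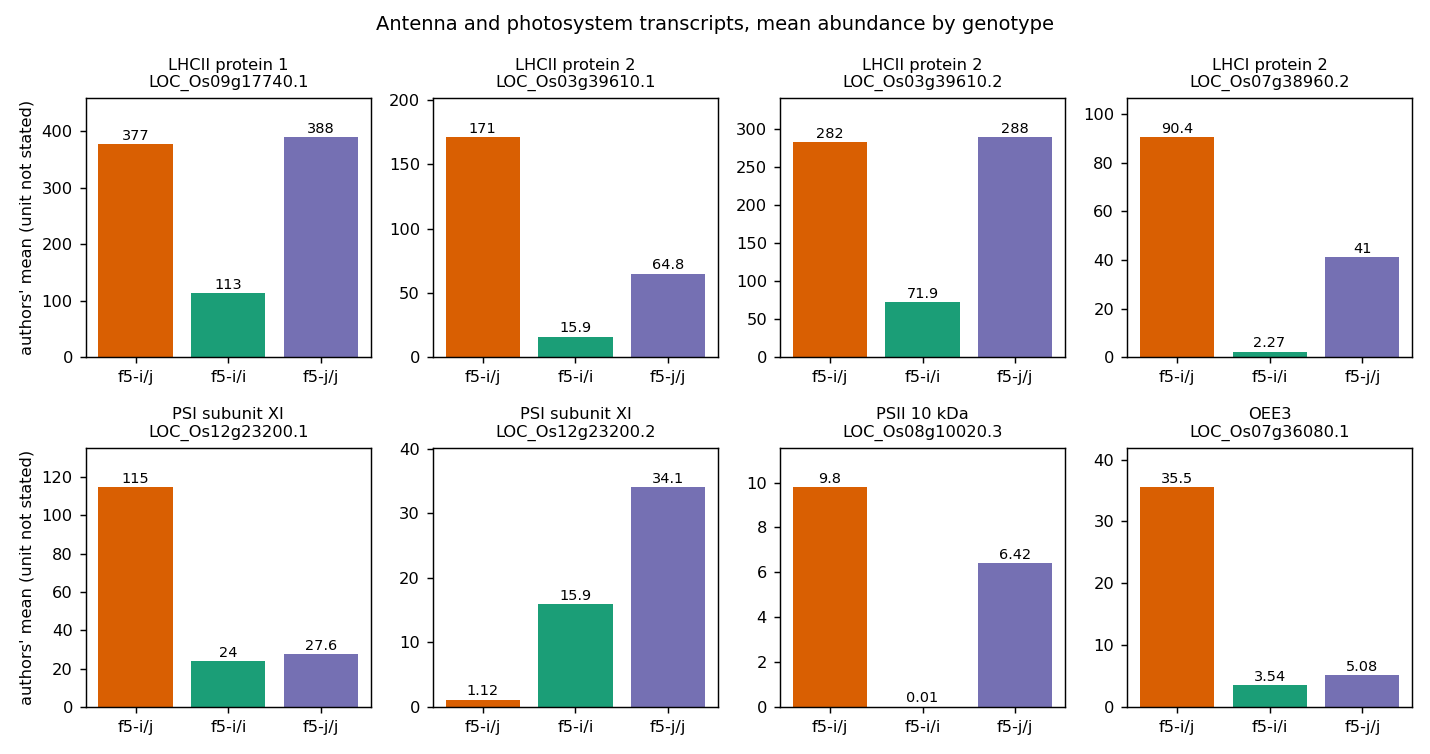
Authors' mean abundance (unit not stated, linear axes from 0, 1 scale per panel) of the 8 transcripts in heterozygotes, f5-i/i and f5-j/j homozygotes, 1 bar per genotype with no error available. The bar of f5-i/i is the lowest in 7 panels. In the panel of LOC_Os12g23200.2 the lowest is f5-i/j, at 1.12.

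The complex II proteins 1 and 2 make up the major antenna of photosystem II. For protein 1 (LOC_Os09g17740.1, listed length 798 bases, taken as coding length) the authors' mean was 377 in heterozygotes, 113 in f5-i/i homozygotes and 388 in f5-j/j homozygotes. The heterozygote was 3.32-fold above f5-i/i and at 0.970 of f5-j/j, so it stood beside f5-j/j homozygotes rather than at the mean of the homozygotes, which was 251. The longer transcript of protein 2 (LOC_Os03g39610.1, 792 bases) had the authors' mean of 171 in heterozygotes, 15.9 in f5-i/i homozygotes and 64.8 in f5-j/j homozygotes. Here the heterozygote was above both homozygotes, 10.8-fold over f5-i/i and 2.64-fold over f5-j/j. The shorter transcript (LOC_Os03g39610.2, 660 bases) had 282 in heterozygotes, 71.9 in f5-i/i homozygotes and 288 in f5-j/j homozygotes by the authors' mean, which is 3.92-fold above f5-i/i and 0.979 of f5-j/j. Both transcripts of protein 2 thus shared a low mean in f5-i/i homozygotes and differed in where the heterozygote stood.

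Between the homozygotes, both complex II loci were lower in f5-i/i homozygotes. The ratio of the authors' means put them 3.43-fold lower for LOC_Os09g17740.1, 4.09-fold lower for LOC_Os03g39610.1 and 4.01-fold lower for LOC_Os03g39610.2. Summed over its 2 listed transcripts, protein 2 had the authors' means adding to 453 in heterozygotes, 87.8 in f5-i/i homozygotes and 353 in f5-j/j homozygotes. The longer transcript made up 37.7% of that sum in heterozygotes, 18.1% in f5-i/i homozygotes and 18.3% in f5-j/j homozygotes. The homozygotes were alike in this split although their sums were 4.02-fold apart, and the heterozygote held more of the longer transcript.

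Complex I protein 2 is a subunit of the antenna belt attached to photosystem I, and of the 7 transcripts above the lowest value in every genotype it had the widest range. The authors' mean of LOC_Os07g38960.2 (789 bases) was 90.4 in heterozygotes, 2.27 in f5-i/i homozygotes and 41.0 in f5-j/j homozygotes. The heterozygote was 39.8-fold above f5-i/i and 2.20-fold above f5-j/j, and f5-i/i homozygotes were 18.1-fold below f5-j/j. Its log2 ratio of 5.32 for heterozygotes over f5-i/i ranked 5 from the top among the 252 transcripts of the authors' deposited table that were above the lowest value in both genotypes.

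Photosystem I subunit XI sits in the photosystem I core near the place where complex II antenna can dock. Its 2 listed transcripts went opposite ways in the heterozygote. LOC_Os12g23200.1 (627 bases) had the authors' mean of 115 in heterozygotes, 24.0 in f5-i/i homozygotes and 27.6 in f5-j/j homozygotes, so heterozygotes were 4.78-fold and 4.15-fold above the homozygotes. LOC_Os12g23200.2 (600 bases) had 1.12 in heterozygotes, 15.9 in f5-i/i homozygotes and 34.1 in f5-j/j homozygotes by the authors' mean, which put heterozygotes 14.2-fold below f5-i/i and 30.5-fold below f5-j/j. The coding lengths of the pair differ by 27 bases.

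Added together, the 2 transcripts of subunit XI gave 116 in heterozygotes, 39.9 in f5-i/i homozygotes and 61.7 in f5-j/j homozygotes by the authors' means. The sum was 2.90-fold higher in heterozygotes than in f5-i/i homozygotes and 1.88-fold higher than in f5-j/j homozygotes. The heterozygote held 99.0% of the sum in the first transcript, f5-i/i homozygotes held 60.2% and f5-j/j homozygotes held 44.8%. The lower value of LOC_Os12g23200.2 in heterozygotes was therefore one of a transcript and not of the summed locus. How reads of a locus are divided between its transcripts was estimated in the authors' counting, and a locus may have further transcripts that the tables do not list.

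**Figure D2:**
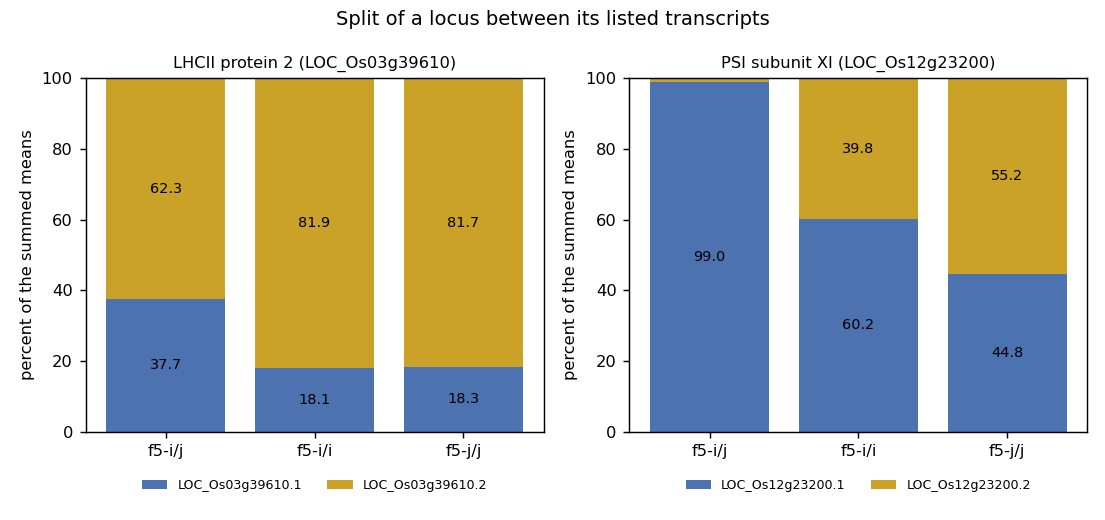
Share of the summed authors' means (percent, stacked to 100) held by each of the 2 listed transcripts of light-harvesting complex II protein 2 (left) and photosystem I subunit XI (right), in heterozygotes, f5-i/i and f5-j/j homozygotes. The heterozygote held 99.0% of subunit XI in LOC_Os12g23200.1, against 60.2% in f5-i/i homozygotes and 44.8% in f5-j/j homozygotes.

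The photosystem II loci encode proteins on the side of the complex that oxidises water. The 10 kDa protein, known from Arabidopsis as a protein needed for stable binding of the oxygen-evolving subunits, had the authors' mean of 9.80 in heterozygotes and 6.42 in f5-j/j homozygotes for LOC_Os08g10020.3 (351 bases). In f5-i/i homozygotes it was listed at 0.01, the lowest value of the tables, which was read as no detection and against which no fold is given. The number 3 in this identifier marks 1 transcript of the locus, so the locus as a whole need not have been silent. The heterozygote was 1.53-fold above f5-j/j, a pair not listed by the authors.

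Oxygen-evolving enhancer protein 3 is an extrinsic protein that helps the manganese cluster hold its calcium and chloride. LOC_Os07g36080.1 (654 bases) had the authors' mean of 35.5 in heterozygotes, 3.54 in f5-i/i homozygotes and 5.08 in f5-j/j homozygotes. The heterozygote stood 10.0-fold above f5-i/i and 6.99-fold above f5-j/j, while f5-i/i homozygotes were at 0.696 of f5-j/j, a pair not listed. This transcript and LOC_Os12g23200.1 were the 2 listed as higher in heterozygotes than in either homozygote.

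By the order of their means and the gaps between them, the transcripts were sorted into 4 patterns, with no fixed limit on a gap. In LOC_Os09g17740.1 and LOC_Os03g39610.2 the heterozygote and f5-j/j homozygotes lay within 1.03-fold of each other, above f5-i/i. In LOC_Os03g39610.1, LOC_Os07g38960.2 and LOC_Os08g10020.3 the order from the top was heterozygotes, f5-j/j, then f5-i/i, with heterozygotes between 1.53-fold and 2.64-fold above f5-j/j. LOC_Os12g23200.1 and LOC_Os07g36080.1 had that same order, with f5-j/j homozygotes 1.15-fold and 1.44-fold above f5-i/i. In these the heterozygote was 4.44-fold and 8.24-fold above the mean of the homozygotes. LOC_Os12g23200.2 had the heterozygote below both, at 0.0447 of the mean of the homozygotes. Without values of single samples it cannot be said which of these neighbouring levels differ beyond their spread.

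The authors' deposited tables keep transcripts whose probability of differential expression reaches 0.8, a score and no p-value. The score of the 8 transcripts lay between 0.808 (LOC_Os09g17740.1) and 0.937 (LOC_Os08g10020.3) for heterozygotes against f5-i/i in the authors' deposited table, whose median was 0.841, and 5 of the 8 were below that median. The score of LOC_Os09g17740.1 for this pair, in which it was 3.32-fold higher in heterozygotes, was the lowest of any member in the tables. Among pairs of means of the members that the tables do not list, the widest apart were LOC_Os03g39610.1, 2.64-fold higher in heterozygotes than in f5-j/j homozygotes, and LOC_Os07g38960.2, 2.20-fold higher. Next came LOC_Os12g23200.2, which was 2.14-fold lower in f5-i/i homozygotes than in f5-j/j. Unlisted pairs such as these still had means, because each transcript was listed for 2 of the 3 pairs of genotypes.

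Further light-reaction transcripts that passed the authors' filter were listed for heterozygotes against f5-i/i. Besides the 6 loci, 13 transcripts of 12 loci matched photosystem, light-harvesting, oxygen-evolving or ferredoxin descriptions in that authors' deposited table, and all 13 were higher in heterozygotes, beside 53.3% of all listed transcripts. Their median log2 ratio in the authors' deposited table was 2.05 and their range 1.59 to 2.30. The median was 2.26 for the 7 antenna and photosystem transcripts (5 of the 6 loci) above the lowest value and 1.82 for all 252 such transcripts. Both medians take higher and lower transcripts together, so 1.82 is not a typical size of change. The member at the median of 2.26, LOC_Os12g23200.1, ranked 83 from the top among the 252. Light-harvesting complex I protein 3 (LOC_Os02g10390.1) had the authors' mean of 91.7 in heterozygotes and 18.7 in f5-i/i homozygotes. Complex II protein 5 (LOC_Os11g13890.1), a minor antenna protein that links the major antenna to the photosystem II core, had 163 in heterozygotes and 35.7 in f5-i/i homozygotes by the authors' mean. Photosystem I subunit PsaO (LOC_Os04g33830.1) had the authors' mean of 174 in heterozygotes and 38.9 in f5-i/i homozygotes. For photosystem I subunit X (LOC_Os07g05480.1) it was 149 in heterozygotes and 34.3 in f5-i/i homozygotes.

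These 12 loci were listed for no other pair, so their f5-j/j means are not in the tables analysed here. All 8 transcripts of the 6 loci were in 2 tables and all 14 remaining light-reaction transcripts of any table in 1. The one not listed for heterozygotes against f5-i/i was LOC_Os04g57880.1, placed here only because its description reads ferredoxin. Its listed length was 1461 bases, against 420 for the ferredoxin LOC_Os08g01380.1, so a part in the light reactions is not established. Its authors' mean was 4.45 in f5-i/i homozygotes and at the lowest value in f5-j/j homozygotes, opposite in direction to the antenna loci. Members of the light-harvesting family resemble each other in sequence, and the authors' counting may have split reads between them.

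**Figure D3:**
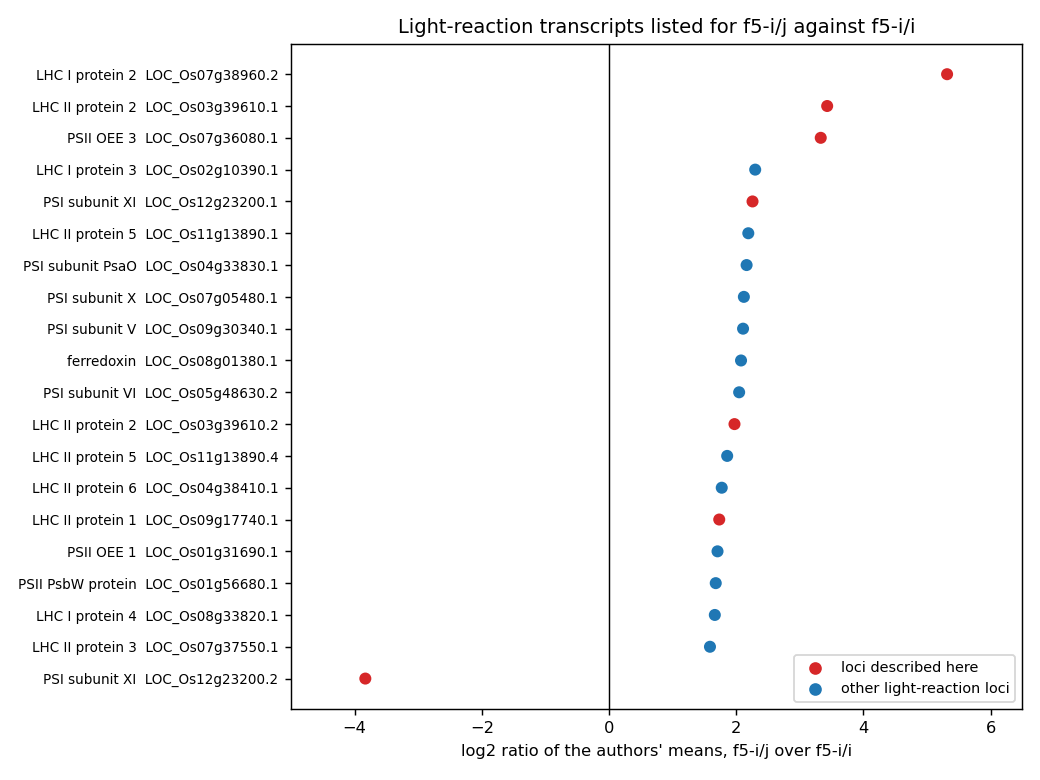
Log2 ratio of the authors' means, heterozygotes over f5-i/i, for the 20 light-reaction transcripts of that table that were above the lowest value in both genotypes, sorted by ratio. Red points are transcripts of 5 of the 6 loci, without LOC_Os08g10020, whose transcript was listed at 0.01 for f5-i/i, and blue points are those of the 12 other loci. LOC_Os12g23200.2 alone lies below 0, at -3.83, and LOC_Os07g38960.2 is at the top, at 5.32.

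**Figure D4:**
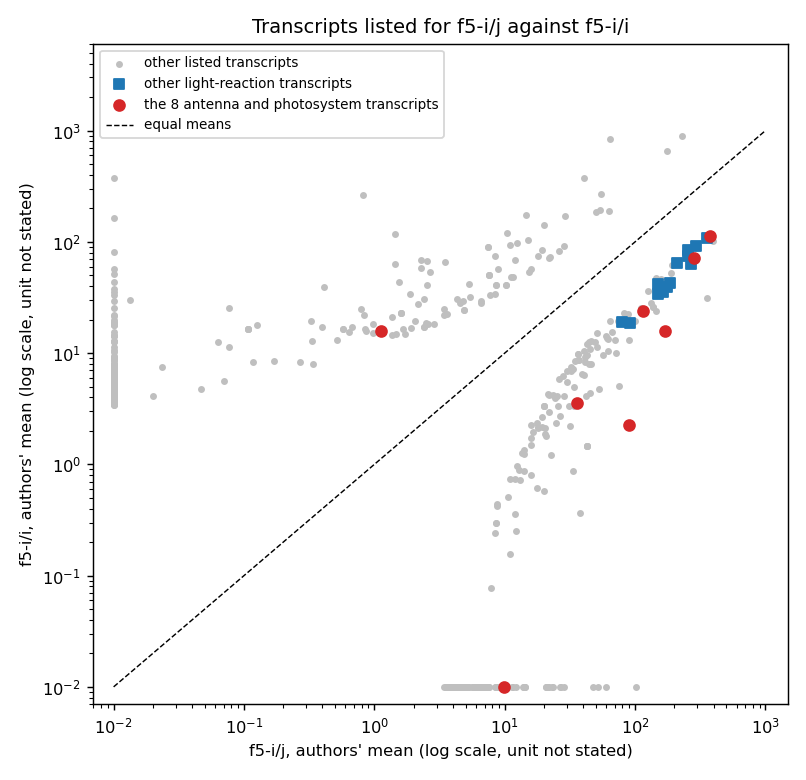
Authors' mean in heterozygotes (x axis) and f5-i/i homozygotes (y axis), both on log scales with no stated unit, of the 480 transcripts listed for this pair. Points below the dashed line of equal means are higher in heterozygotes. The red point on the lower edge is LOC_Os08g10020.3, at 0.01 in f5-i/i homozygotes, and the empty band along the line is the range that the authors' threshold leaves out.

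Enzymes that make or break down chlorophyll, the pigment these proteins bind, were listed too. The list of chlorophyll enzymes had 7 transcripts of 5 loci, all higher in heterozygotes than in f5-i/i homozygotes in the authors' deposited table, beside 53.3% of all listed. Of the 7, 4 were above the lowest value in both genotypes. Geranylgeranyl reductase (LOC_Os02g51080.1), which makes the phytol tail, had the authors' mean of 70.2 in heterozygotes, 13.2 in f5-i/i homozygotes and 59.5 in f5-j/j homozygotes. Of the 5 loci, 1 acts in chlorophyll breakdown and not in synthesis. It encodes pheophorbide a oxygenase (LOC_Os03g59090.2), with the authors' mean of 16.0 in heterozygotes and 0.80 in f5-i/i homozygotes. For heterozygotes against f5-j/j 3 transcripts of the list were present, all higher, beside 44.6% of all listed. Only 1 of the 3 was above the lowest value in both genotypes. A protochlorophyllide reductase transcript not listed for this pair (LOC_Os04g58200.3) went the other way, with the authors' mean of 20.6 in heterozygotes and 44.6 in f5-j/j homozygotes. For f5-i/i homozygotes against f5-j/j there were 4, all lower, beside 54.9% of all listed, and 3 were above the lowest value.

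Words for carbon fixation, which uses the products of the light reactions, matched 3 transcripts higher and 1 lower for heterozygotes against f5-i/i. Of all listed transcripts, 53.3% were higher. The small subunit of ribulose-bisphosphate carboxylase, the enzyme that fixes carbon dioxide, had the authors' mean of 59.7 in heterozygotes and 14.3 in f5-i/i homozygotes for LOC_Os12g19381.1. For LOC_Os12g17600.1 it was 64.0 in heterozygotes and 19.4 in f5-i/i homozygotes. The remaining higher transcript was a fructose-bisphosphate aldolase (LOC_Os11g07020.4), at 51.4 in heterozygotes and 15.3 in f5-i/i homozygotes by the authors' mean. Its description does not tell carbon fixation from glycolysis. Another small subunit locus, LOC_Os12g19470.2, was listed for heterozygotes against f5-j/j, with the authors' mean of 24.2 in heterozygotes and 5.19 in f5-j/j homozygotes. The lower transcript for heterozygotes against f5-i/i was a glyceraldehyde 3-phosphate dehydrogenase of glycolysis by its enzyme number (LOC_Os04g40950.3). It was at the lowest value in heterozygotes and 3.47 in f5-i/i homozygotes by the authors' mean. The words missed the NADP-dependent enzyme of the chloroplast (LOC_Os04g38600.3), whose description is hyphenated, and it is counted under plastid. Its authors' mean was higher in heterozygotes, at 44.6 against 8.06 in f5-i/i homozygotes. The words for photorespiration matched no transcript for heterozygotes against f5-i/i. For the other pairs they matched only 2 enzymes that carry phosphoglycerate in their names, a kinase and a mutase, whose descriptions name no pathway.

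Transcripts closest in pattern to the members were sought among the 164 transcripts with 3 means above the lowest value, as the distance between log2 means centred on their average over the 3 genotypes. With 3 points per transcript this describes shape only. Closest to LOC_Os03g39610.1 was protochlorophyllide reductase (LOC_Os04g58200.1), an enzyme of chlorophyll synthesis, at a distance of 0.110 log2 units, with the authors' mean of 354 in heterozygotes, 31.1 in f5-i/i homozygotes and 121 in f5-j/j homozygotes. Closest to LOC_Os03g39610.2 was a sugar transporter (LOC_Os02g19820.1), at 0.0353, with 88.8 in heterozygotes, 22.6 in f5-i/i homozygotes and 88.0 in f5-j/j homozygotes by the authors' mean. For LOC_Os09g17740.1 it was myo-inositol-1-phosphate synthase (LOC_Os03g09250.1), at 0.0705, with 188 in heterozygotes, 52.9 in f5-i/i homozygotes and 189 in f5-j/j homozygotes by the authors' mean.

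The nearest transcripts of the remaining members were as follows. Closest to LOC_Os07g36080.1 was LOC_Os01g70850.1, described as a polyneuridine-aldehyde esterase, at 0.104 log2 units, with the authors' mean of 31.3 in heterozygotes, 3.37 in f5-i/i homozygotes and 4.40 in f5-j/j homozygotes. Closest to LOC_Os12g23200.1 was LOC_Os06g38960.1, which has no description, at 0.210. Closest to LOC_Os12g23200.2 was a heat shock transcription factor (LOC_Os08g43334.2), at 0.278, with the authors' mean of 1.37 in heterozygotes, 21.0 in f5-i/i homozygotes and 34.6 in f5-j/j homozygotes. LOC_Os07g38960.2 had no neighbour nearer than 0.784, the distance of an F-box and leucine-rich repeat protein (LOC_Os04g42470.5).

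Other transcripts were listed between these genotypes as well, and their part in the values above was not tested. Heat shock and chaperone transcripts were 1 higher and 25 lower for heterozygotes against f5-i/i in the authors' deposited table, where 53.3% of all were higher. They were 1 higher and 20 lower for heterozygotes against f5-j/j, where 44.6% of all were higher. For f5-i/i homozygotes against f5-j/j they were 3 higher and 3 lower, where 54.9% of all were lower. In the same order of pairs, these transcripts came from 15, 16 and 5 loci. Counted by locus, they were 1 higher and 15 lower, 1 higher and 15 lower, and 3 higher and 3 lower. LOC_Os08g39140 stood on both sides in the first and last pair, because its transcripts went opposite ways. Several transcripts of LOC_Os03g53340 had the same means in the first pair, as had transcripts of LOC_Os10g28340 in the first and second pair. The same values were thus counted repeatedly. Of clock and day-length regulators, 5 transcripts were higher and 1 lower for heterozygotes against f5-i/i, 0 higher and 1 lower for heterozygotes against f5-j/j, and 0 higher and 6 lower for f5-i/i homozygotes against f5-j/j, beside the same shares. By locus these were 2 higher and 1 lower, 0 higher and 1 lower, and 0 higher and 3 lower. Several transcripts of LOC_Os08g06110 were listed with identical means, so they repeat the same values. The clock list includes 2 loci described as LHY, a clock regulator, and the heterozygote stood differently in the pair. By the authors' mean LOC_Os08g06110.2 stood at 43.1 in heterozygotes, 1.45 in f5-i/i homozygotes and 75.5 in f5-j/j homozygotes. The other, LOC_Os06g51260.1, stood at 13.6 in heterozygotes, 14.1 in f5-i/i homozygotes and 97.6 in f5-j/j homozygotes, so its heterozygotes were level with f5-i/i. The lower transcript for heterozygotes against f5-i/i was a CONSTANS zinc finger protein (LOC_Os06g19444.2), at the lowest value in heterozygotes and 4.34 in f5-i/i homozygotes by the authors' mean.

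Of 12 marker loci of the tapetum, the anther layer that feeds pollen, 1 was listed. That was C6 (LOC_Os11g37280.1), with the authors' mean of 34.1 in heterozygotes, 33.8 in f5-i/i homozygotes and 0.413 in f5-j/j homozygotes, so it did not follow the antenna loci. MADS-box transcripts, from a family with many regulators of flower development, were 0 higher and 2 lower for heterozygotes against f5-i/i, where 53.3% of all were higher. They were 0 higher and 2 lower for heterozygotes against f5-j/j, where 44.6% of all were higher. These 2 were of 1 locus, with 1 above the lowest value in both genotypes. For f5-i/i homozygotes against f5-j/j they were 1 higher and 1 lower, where 54.9% of all were lower. Nothing is read from counts this small. Among the MADS-box transcripts LOC_Os02g49840.2 had the authors' mean of 0.413 in heterozygotes, 39.5 in f5-i/i homozygotes and 16.6 in f5-j/j homozygotes. LOC_Os10g39130.2 had the authors' mean of 5.43 in heterozygotes and 31.8 in f5-i/i homozygotes. LOC_Os02g49840.2 and LOC_Os10g39130.2 were thus lower in heterozygotes than in f5-i/i homozygotes, where most antenna transcripts were higher. Their part in the antenna values was not tested. Since the tables are filtered, the identity of the tissue could not be checked further.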

How the data were processed

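PolyA RNA of 9 spikelet samples, 3 per genotype, was sequenced by the authors. The submitters' processing notes name BWA, Bowtie and RSEM, with no version or role, and the sources used here give no genome build, annotation or normalization. Each table holds signal values, the authors' mean per genotype per the file headers, and 100% of them are multiples of 1/300 (within 0.0001 after multiplying by 300), as averages of 3 values with 2 decimals would be. The deposited log2 ratio was recomputed from the 2 means. The deposited probability is a score of at least 0.8. Lengths are the authors' gene lengths. They were taken here as coding lengths because all are multiples of 3, and no header says so. Read depth is unknown, and counts cannot be recovered.

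Genotypes of columns came from the table names, and a genotype's mean differed by 0 between tables. The members and lists were chosen with earlier results of these data known. Lists were found by words in the first deposited description, and plastid also by cell component terms; light-reaction matches were kept out of the other lists. All transcripts of the 6 loci are named. Of each list, at most 4 transcripts with the largest absolute log2 ratio per table were eligible, and of the 3 nearest transcripts per member the closest is given. The transcripts outside this rule were LOC_Os04g57880.1, LOC_Os04g40950.3, LOC_Os09g25770.1, LOC_Os08g43580.2 and LOC_Os06g19444.2, at the lowest value in a genotype. They were named after their values were seen, as were the remaining light-reaction loci in the plot of ratios. No test was run. No member locus was found by identifier in the reference gene table (0 of 6), so no sequence is shown. Calculations used Python 3.11.15, pandas 2.3.3 and numpy 2.4.6. The ranking of distances was tested on simulated data.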

Additional observations from a re-analysis of the deposited data

How the results depend on the processing

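At a probability of at least 0.9, members higher in heterozygotes than in f5-i/i homozygotes numbered 2 (LOC_Os07g38960.2 and LOC_Os08g10020.3) and members lower 0. For heterozygotes against f5-j/j homozygotes 0 higher and 0 lower were left, and for f5-i/i homozygotes against f5-j/j homozygotes 0 lower. No test stands behind these counts. The limit of 2 on the absolute log2 ratio, or leaving out transcripts at the lowest value, kept every count of members within 1.5 times. Among the 13 other light-reaction transcripts higher in heterozygotes than in f5-i/i homozygotes, 7 reached an absolute log2 ratio of 2 and 0 a probability of 0.9, limits added after seeing the data. Summing the listed transcripts of a locus reversed LOC_Os12g23200.2, with log2 ratios of 1.54 for heterozygotes over f5-i/i homozygotes and 0.91 for heterozygotes over f5-j/j homozygotes, by construction since LOC_Os12g23200.1 is in the sum. A pseudocount of 1 brought all 16 listed log2 ratios of members nearer to 0, and 4 of them by over 1.5-fold. For LOC_Os08g10020.3 the log2 ratio of heterozygotes over f5-i/i homozygotes was then 3.42. Dividing means by coding length moved the shares of transcripts by under 5 percentage points. With Pearson correlation as the measure of likeness, 7 of the 21 nearest transcripts were shared; the cause was not tested. No paired analysis was possible because the tables hold genotype means and no column carries a replicate number. Leaving out a replicate could not be run for the same reason.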

Other observations

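Plastid transcripts outside the light reactions did not all follow the antenna loci. The NADP-dependent glyceraldehyde-3-phosphate dehydrogenase of the chloroplast (LOC_Os04g38600.3) had the authors' mean of 44.6 in heterozygotes, 8.06 in f5-i/i homozygotes and 34.6 in f5-j/j homozygotes, the same order as LOC_Os07g38960.2. Thiamine thiazole synthase (LOC_Os07g34570.1), a plastid enzyme of vitamin synthesis, went the other way between the homozygotes, at 304 in f5-i/i homozygotes and 72.3 in f5-j/j homozygotes by the authors' mean. Of the plastid list, 7 transcripts were higher and 2 lower for heterozygotes against f5-i/i homozygotes in the authors' deposited table, where 53.3% of all were higher, and 4 of the 7 are also counted under chlorophyll or carbon fixation. It had 3 higher and 0 lower for heterozygotes against f5-j/j homozygotes, where 44.6% of all were higher, and 2 of the 3 are counted there too. For f5-i/i homozygotes against f5-j/j homozygotes it had 2 higher and 3 lower, where 54.9% of all were lower, and 2 of the 3 lower are counted there too. The 2 lower for heterozygotes against f5-i/i homozygotes were a SEC61 subunit alpha (LOC_Os08g15460.2) and 6-phosphofructokinase 1 (LOC_Os08g43580.2). The authors' means were 0.0467 against 4.77 and the lowest value against 6.84. Their descriptions name no plastid, and they were matched by cell component terms alone.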
